A study of Mus musculus with 6 samples.

Results

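The 466 regions described here were at least 3 times as open in every Ogtflox+/Y library as in any Ogtflox-/Y library. They are ATAC-seq regions on mouse chromosomes 1 to 19, chosen by their measured values: at each of them the lowest CPM of the 3 Ogtflox+/Y libraries was 3 or more times the highest CPM of the 3 Ogtflox-/Y libraries, and the Ogtflox+/Y mean was 2 CPM or more. CPM is the read count of a region scaled to 1000000 reads in all regions of its library. The regions were drawn from 189575 regions on these chromosomes and 193148 in all. Because the rule compares the same libraries, the difference between the groups at these regions is a description and was not tested; what they share in position, neighbours and sequence was not used to choose them. The limits exchanged between the groups picked out 171 closed regions.

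The study measured accessible chromatin in nuclei of the mouse ventral tegmental area, which holds dopaminergic neurons of the midbrain. Ogtflox+/Y mice carried the floxed Ogt allele, and Ogtflox-/Y mice served as controls without it. Both genotypes were injected with AAV-TH-Cre, a Cre vector named for tyrosine hydroxylase, and with AAV-DIO-H2B-EGFP, which marks nuclei of cells that have Cre, and EGFP-positive nuclei were sorted. Each genotype has 3 libraries; the labels give neither the age of the mice nor whether a library is 1 animal, so the p-values of the fit across all regions measure only the spread between libraries, which may be technical. The title of Ogtflox+/Y replicate 1 names the other genotype, while its genotype label says Ogtflox+/Y, and the label was followed; by title, no region met the rule and edgeR called none (23047 regions had an unadjusted p under 0.05).

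Ogt encodes the only enzyme that attaches O-GlcNAc, a single sugar made through the hexosamine pathway, to nuclear and cytoplasmic proteins, among them transcription factors, chromatin regulators and RNA polymerases. Accessible chromatin marks promoters and enhancers, and also tRNA genes, which RNA polymerase III transcribes from promoter elements inside the gene. The transcription factor p53 opens and activates its own set of enhancers and promoters after stress, by binding a pair of 10-base half-sites.

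Only 3 of the opened regions overlapped a 300-base RefSeq promoter window (250 bases before to 50 after a start site, GRCm38.p6, the assembly called mm10), and all 3 windows held the p53 half-site pattern. They are shown because they are the promoter sequences lying in opened chromatin. Capitals mark matches to the p53 half-site on either strand, which do not overlap each other, and the strand printed is that of the gene.
Gm51651, lncRNA, chr1:155056274-155056573, plus strand: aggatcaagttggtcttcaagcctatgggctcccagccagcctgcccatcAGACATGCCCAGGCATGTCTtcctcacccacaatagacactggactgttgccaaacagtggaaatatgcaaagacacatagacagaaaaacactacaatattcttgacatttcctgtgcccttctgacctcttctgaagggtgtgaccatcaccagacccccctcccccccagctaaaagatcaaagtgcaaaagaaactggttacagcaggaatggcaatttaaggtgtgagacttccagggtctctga
Cdkn1a, protein-coding, chr17:29090729-29091028, plus strand: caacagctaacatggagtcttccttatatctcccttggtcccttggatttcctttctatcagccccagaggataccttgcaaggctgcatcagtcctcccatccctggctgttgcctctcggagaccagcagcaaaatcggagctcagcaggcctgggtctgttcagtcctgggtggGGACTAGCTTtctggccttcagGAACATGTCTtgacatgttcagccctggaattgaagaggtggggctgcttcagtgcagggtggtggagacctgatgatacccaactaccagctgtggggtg
Gm33661, lncRNA, chr7:130340710-130341009, minus strand: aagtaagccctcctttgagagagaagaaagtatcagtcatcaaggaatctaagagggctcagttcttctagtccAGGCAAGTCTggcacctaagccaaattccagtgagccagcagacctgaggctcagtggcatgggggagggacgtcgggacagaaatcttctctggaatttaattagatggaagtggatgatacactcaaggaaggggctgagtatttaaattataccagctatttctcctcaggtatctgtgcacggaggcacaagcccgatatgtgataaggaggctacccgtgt

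In the Gm51651 window both half-sites stood side by side, 0 bases apart, and lay inside the opened region. The Cdkn1a window held a pair 12 bases apart, also inside its opened region. Only exact matches to the half-site pattern were counted, so the pair found need not be the one that p53 uses. The letters tgacatgttc, directly after the second half-site of this pair, did not match exactly and were not counted. The single match of the Gm33661 window ran past the edge of its region. Across 32851 promoter windows of the table, 8.36% held at least 1 half-site, 24 windows (0.0731%) held a pair at most 13 bases apart and 3 (0.00913%) a pair with no gap. The half-site was searched for after the p53 genes described below had been seen, and a match does not show that p53 binds. None of the 3 windows held the STAT site, CRE, AP-1, E-box, GC box, E2F, Ets or YY1 letters that were also searched.

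The reads in regions numbered 14067854, 12698758 and 15795872 in Ogtflox+/Y replicates 1 to 3, and 13120042, 24440507 and 19876169 in Ogtflox-/Y replicates 1 to 3. A count of 3 reads equals 0.213, 0.236 and 0.19 CPM in the Ogtflox+/Y libraries and 0.229, 0.123 and 0.151 CPM in the Ogtflox-/Y libraries, for counting error only. All library pairs differed by more than sampling noise. The main region of Th, which encodes tyrosine hydroxylase of dopamine synthesis, had 223.7, 181.4 and 164.1 CPM in Ogtflox+/Y libraries and 178.4, 396.7 and 260.6 CPM in Ogtflox-/Y libraries, so Th was well open in all 6. At the most accessible Ogt region values were 16.8, 14.9 and 14 CPM in Ogtflox+/Y libraries and 11.1, 11.6 and 9.66 CPM in Ogtflox-/Y libraries; which exons are floxed is not stated, so this region does not check the labels. In sorted nuclei in bulk, a larger share of nuclei with a region open cannot be told apart from a wider opening in each nucleus.

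The opened regions were faint in Ogtflox-/Y and moderately open in Ogtflox+/Y. The median opened region had 4.73, 4.65 and 4.94 CPM in Ogtflox+/Y replicates 1 to 3, and 0.762, 0.9 and 0.805 CPM in Ogtflox-/Y replicates 1 to 3. Their Ogtflox+/Y means had a median of 4.8 CPM, at the 75.9th percentile of all regions on these chromosomes. Their Ogtflox-/Y means had a median of 0.869 CPM, at the 6.79th percentile. Together they took 0.269%, 0.265% and 0.288% of the region reads in Ogtflox+/Y libraries and 0.0461%, 0.054% and 0.05% in Ogtflox-/Y libraries. Most were 401 bp wide, and 18 were wider. In 55 of them at least 1 Ogtflox-/Y library had 3 reads or fewer, 48 of these in replicate 1, so the largest folds rest on few reads.

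**Figure D1:**
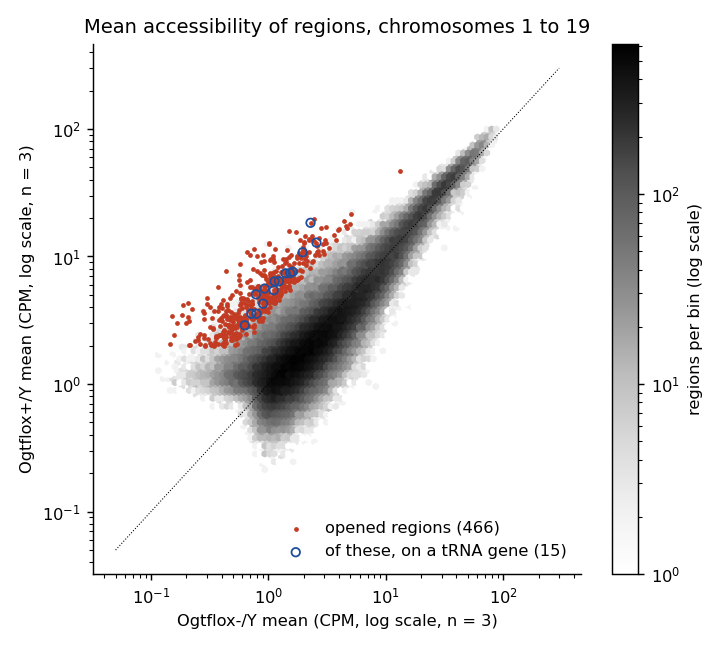
Mean CPM of regions on chromosomes 1 to 19 in Ogtflox+/Y libraries (y axis) against Ogtflox-/Y libraries (x axis), both on log scales; grey bins give the number of regions, red points are the 466 opened regions and blue circles the 15 of them on a tRNA gene, and the dotted line marks equal means. The opened regions form the upper left edge of the cloud, at Ogtflox+/Y means of 2 CPM or more.

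The lowest Ogtflox+/Y library exceeded the highest Ogtflox-/Y library by a median factor of 3.72, by 5 or more at 96 regions and by 10 or more at 9. The edgeR log2 fold change, Ogtflox+/Y over Ogtflox-/Y, ran from 1.86 to 4.52 with a median of 2.55. Across all tested regions edgeR called 15.4% higher in Ogtflox+/Y at an adjusted p under 0.05, and at 16.2% of regions on these chromosomes the Ogtflox+/Y libraries lay wholly above the Ogtflox-/Y libraries. All 466 opened regions were in both groups, as the rule requires or nearly requires, and nothing is read from that. Just inside the limit were regions in Rtn3, Adgrd1 and Ica1, each with a factor of 3.006 between lowest and highest library, and just outside it regions in or near Cdip1 (2.996), Chst2 (2.996) and Efcab14 (2.994).

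Ogtflox+/Y libraries differed little among themselves at most opened regions. Their highest library was a median 1.27 times their lowest, and at 19 regions they were over 2-fold apart. Replicate 1 was the lowest Ogtflox+/Y library at 186 regions, replicate 2 at 180 and replicate 3 at 100. Among the exceptions, a region nearest to Gm9733 had 9.38, 1.26 and 1.08 CPM in Ogtflox+/Y libraries and 0.229, 0.286 and 0.151 CPM in Ogtflox-/Y libraries, so that replicate 1 carried its mean. A pair of regions near Calml3, a calmodulin-like gene, had 15.9, 3.39 and 11.3 CPM and 8.39, 2.2 and 8.86 CPM in Ogtflox+/Y replicates 1 to 3, against at most 1.01 CPM in any Ogtflox-/Y library, with replicate 2 far below the others.

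Replicate 2 mattered for which regions met the rule. Without it 1270 regions did, and the 813 regions this added had median values of 5.05, 1.65 and 4.49 CPM in Ogtflox+/Y replicates 1 to 3, against a median Ogtflox-/Y mean of 0.902 CPM. They included 10 of 210 regions nearest to astrocyte marker genes (4.76%), among them Gfap, Aqp4, Aldh1l1 and Gja1, 3 of 118 nearest to oligodendrocyte marker genes (2.54%) and 3 of 272 nearest to dopaminergic marker genes (1.1%), namely Aldh1a1, En1 and Otx2. Over all regions on these chromosomes 0.67% met the rule without replicate 2, and the other 4 marker lists had 0. Of the 466 regions open in all 3 libraries, 0 lay nearest to any of 95 marker genes of 7 cell types (980 regions), against 0.542% of other regions weighted to the same mean CPM, so that 0 is near the background. The 210 astrocyte regions summed to 958.4, 663.9 and 925.6 CPM in Ogtflox+/Y libraries and 704.0, 639.0 and 689.4 CPM in Ogtflox-/Y libraries, with 74 called higher and 13 lower by edgeR. Over all regions edgeR called 15.4% higher. The 170 GABAergic regions summed to 744.6, 716.7 and 673.2 CPM in Ogtflox+/Y libraries and 551.5, 666.2 and 598.0 CPM in Ogtflox-/Y libraries, with 56 called higher and 8 lower. With library totals as scaling, 49 astrocyte regions were called higher and 24 lower, and 27 GABAergic regions higher and 21 lower. The 37 microglia regions summed to 106.1, 110.8 and 92.9 CPM in Ogtflox+/Y, below 142.5, 136.7 and 143.2 CPM in Ogtflox-/Y (2 called higher, 4 lower). For 111 endothelial and mural regions the sums were 268.9, 264.4 and 241.6 CPM in Ogtflox+/Y, below 297.2, 309.7 and 326.5 CPM in Ogtflox-/Y (8 called higher, 17 lower). Oligodendrocyte, glutamatergic and dopaminergic regions had 33, 10 and 39 called higher and 17, 10 and 18 lower. With library totals these lists had 20, 6 and 19 called higher and 31, 16 and 47 lower. The 272 dopaminergic regions summed to 1385.3, 1547.8 and 1306.7 CPM in Ogtflox+/Y libraries and 1323.7, 1847.8 and 1722.7 CPM in Ogtflox-/Y libraries. Oligodendrocyte sums were 609.4, 490.0 and 501.0 CPM in Ogtflox+/Y and 530.9, 519.7 and 520.0 CPM in Ogtflox-/Y. Glutamatergic sums were 200.3, 245.1 and 242.1 CPM in Ogtflox+/Y, below 254.8, 252.1 and 266.5 CPM in Ogtflox-/Y. The part of these differences in the opened regions was not tested. None of the 7 lists' summed levels was at 0 in any library.

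The widest gaps between the groups lay at regions that hold no listed start site, and only 2 of all 466 opened regions (0.429%) hold one. Inside Zfp37, a zinc finger gene (chr4:62200155-62200555), values were 4.05, 3.86 and 4.68 CPM in Ogtflox+/Y libraries and 0.152, 0.164 and 0.252 CPM in Ogtflox-/Y libraries, and the lowest of the first was 15.3 times the highest of the second. A region 9327 bp from Zfp280d, another zinc finger gene, averaged 4.35 ± 0.871 CPM in Ogtflox+/Y and 0.205 ± 0.0951 CPM in Ogtflox-/Y (SD, n = 3 each). These controls are close to the level of 3 reads, so both folds are imprecise.
Better covered was a region 1047 bp from Rlf, which encodes a zinc finger protein (chr4:121216168-121216568), with 10.2, 11.6 and 11 CPM in Ogtflox+/Y libraries and 0.534, 0.818 and 0.604 CPM in Ogtflox-/Y libraries. Inside Ccdc114, a gene of motile cilia, values were 10.2, 12.6 and 11.8 CPM in Ogtflox+/Y libraries and 0.534, 0.818 and 0.906 CPM in Ogtflox-/Y libraries. At both genes every Ogtflox+/Y library was more than 10 times every Ogtflox-/Y library. The other regions of the 12 with the widest gaps lay nearest to Ankrd46, Tgfa, Sp3, Spata19, Zfp958, 9530053A07Rik, Fam161a and Egfl7, at Ogtflox+/Y means of 3.01 to 12.5 CPM.

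Among the opened regions with high levels, one inside Smim14 averaged 21.4 ± 1.33 CPM in Ogtflox+/Y and 5.06 ± 0.637 CPM in Ogtflox-/Y (SD, n = 3 each). Regions inside Fam53b, Spata2, Sdhb, a subunit of mitochondrial succinate dehydrogenase, and Cdh13, a cadherin, had Ogtflox+/Y means of 16.8 to 19.5 CPM.

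Relative to protein-coding genes, 228 opened regions (48.9%) lay inside a gene, 185 (39.7%) between genes and 53 (11.4%) at a gene end, within 1000 bp of either gene bound. For comparison, other regions were weighted so that their mean CPM over all 6 libraries had the same spread over deciles as that of the opened regions, and of these 61.7% lay inside a gene, 30.7% between genes and 7.54% at a gene end. The gene-end share depended on the weighting: weighted to the Ogtflox+/Y mean, it was 15.3% among other regions, above the 11.4% of opened regions. Closed regions lay between genes more often than inside them, at 53.2% and 34.5%.

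**Figure D2:**
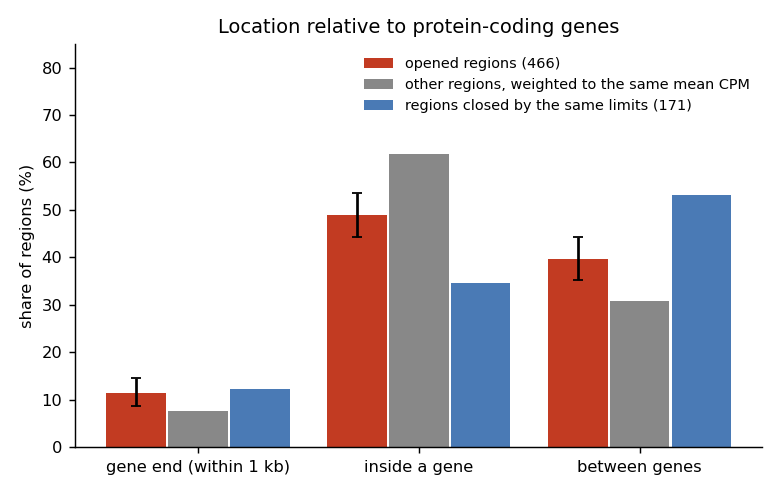
Share of regions (%, y axis) inside a protein-coding gene, between genes or within 1 kb of a gene bound, for the 466 opened regions (red, with exact 95% binomial intervals for counting error), other regions weighted to the same mean CPM (grey) and 171 closed regions (blue). Opened regions were inside genes at 48.9%, against 61.7% of other regions, and between genes at 39.7%, against 30.7%.

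Measured from start sites, opened regions were sparse at the start itself and frequent just beside it. This was counted for the 453 opened regions outside chromosome 18, for which the promoter table used here has no entries. Centres of 60 regions (13.2%, exact 95% interval 10.3% to 16.7%) lay 1000 to 2000 bp from the nearest start, against 2.85% of other regions weighted to the same mean CPM, 4.31% weighted to the Ogtflox+/Y mean and 6.13% of closed regions. Of the 60, 40 lay downstream of the start and 20 upstream. Within 500 bp there were 7 opened regions (1.55%), against 3.84% and 9.2% of other regions under these weightings. At over 100000 bp the share was 10.2%, against 20.4% and 15.3%. This band was singled out after its value was seen, and without Ogtflox+/Y replicate 2 its share among the regions then meeting the rule was 7.02%. The rule favours regions faint in Ogtflox-/Y, where opened regions had a median of 0.869 CPM. The start regions described below had Ogtflox-/Y medians of 25.5 and 20.4 CPM. Neither weighting matched the Ogtflox-/Y level, so nothing is read from the low share within 500 bp.

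**Figure D3:**
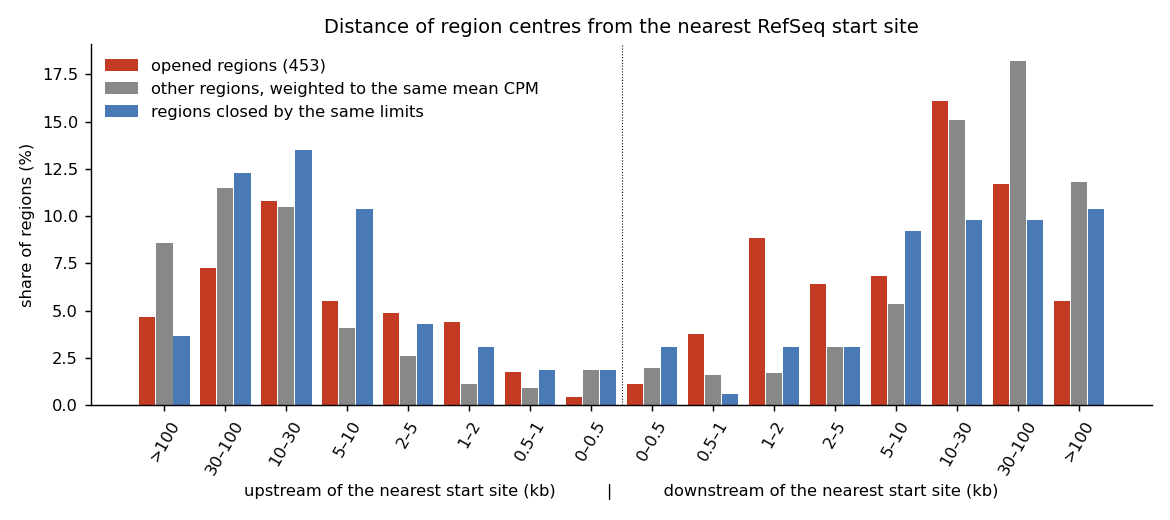
Share of regions (%, y axis) by distance of their centre from the nearest RefSeq start site, in kb upstream (left of the dotted line) and downstream (right), for opened regions (red, 453 with entries), other regions weighted to the same mean CPM (grey) and closed regions (blue). Opened regions stand above the others at 1 to 2 kb on both sides, with 8.83% downstream and 4.42% upstream, against 1.72% and 1.13% of other regions.

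The start sites next to these flanking regions were themselves open in both groups. For 48 of the 60 a region lay within 500 bp of the same start, with median levels of 29.2 CPM in Ogtflox+/Y and 25.5 CPM in Ogtflox-/Y, and a median log2 fold change of 0.30. Of these start regions edgeR called 26 higher (54.2%) and 1 lower. Beside the other regions 1000 to 2000 bp from a start, 40.2% of 3069 start regions were called higher and their median log2 fold change was 0.26. Those other flanking regions were called higher at 29.1% of 4976 and lower at 473, against 15.4% called higher over all regions.

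Genes with a flanking opened region ranged over several functions. At Lonp1, a mitochondrial protease gene (chr17:56625536-56625936), the region 1167 bp downstream of the start had 16.2, 14.1 and 17.2 CPM in Ogtflox+/Y libraries and 1.3, 1.68 and 1.56 CPM in Ogtflox-/Y libraries. At Hspa5, the gene of the endoplasmic reticulum chaperone BiP, a region 1839 bp upstream had 6.33, 8.03 and 8.93 CPM in Ogtflox+/Y libraries and 1.14, 1.27 and 1.06 CPM in Ogtflox-/Y libraries. At Gdf15, a stress-induced secreted factor, a region 1191 bp downstream averaged 9.2 ± 0.789 CPM in Ogtflox+/Y and 2.39 ± 0.429 CPM in Ogtflox-/Y (SD, n = 3 each); it was picked out after its value was seen. Others, also picked out afterwards, lay beside Man1b1, an endoplasmic reticulum mannosidase gene, Trmt61a, a tRNA methyltransferase gene, the proteasome genes Psmf1 and Psmd8, Usp19, a deubiquitinase gene, and Dhx36, a helicase gene.

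Genes with an opened region at either gene end had promoters richer in CpG than all promoters together. The 49 promoter windows of 42 such genes had a median of 7.33 CpG per 100 bases, against 2.33 over all 32851 windows. GC box letters (GGGCGG) stood in 49% of the 49 windows and in 35.7% of all, Ets letters (CCGGAAGT) in 18.4% and 3.89%, CRE letters (TGACGTCA) in 8.16% and 1.79%, E-box letters (CACGTG) in 16.3% and 7.15%, and STAT letters (TTCNNNGAA) in 4.08% and 8.3%, each counted on both strands; matches of different motifs may overlap. The p53 half-site stood in 4.08% of the 49 windows and in 8.36% of all. These windows lie mostly outside the opened regions themselves. The comparison is with all promoters, lncRNA promoters included. Promoters of genes with another accessible region at a gene end were not compared. Whether these letters are particular to genes with an opened region was therefore not tested. Besides Lonp1, the gene-end regions with the highest levels included those of Nek8, a kinase of cilia, Ttll11, a tubulin glutamylase gene, and Ncaph2, a condensin subunit gene. Another lay inside Wars, the gene of a tryptophanyl-tRNA synthetase, and its nearest gene bound, 376 bp away, was that of Wdr25. At Wars (chr12:108893376-108893776) values were 13.6, 13.6 and 13 CPM in Ogtflox+/Y libraries and 2.13, 2.09 and 1.36 CPM in Ogtflox-/Y libraries.

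Opened regions overlapped tRNA genes in 15 cases (3.22%, exact 95% interval 1.81% to 5.25%), against 0.0476% of other regions weighted to the same mean CPM, 0.127% weighted to the Ogtflox+/Y mean and 0 of 171 closed regions. This overlap was examined after the values were known. All 15 lay in 2 spans dense in tRNA genes, 12 on chromosome 13 between 21 and 24 Mb and 3 on chromosome 3 between 96 and 97 Mb. They covered genes for serine, leucine, arginine, glutamine, lysine, alanine, valine, isoleucine, methionine, asparagine and histidine tRNAs.
At n-TSaga5, a serine tRNA gene (chr13:21919078-21919478), values were 19.5, 18.3 and 17.3 CPM in Ogtflox+/Y libraries and 1.91, 1.88 and 3.07 CPM in Ogtflox-/Y libraries. At n-TNgtt10, an asparagine tRNA gene picked out after its values were seen (chr3:96401905-96402305), they were 14.4, 12.4 and 11.8 CPM in Ogtflox+/Y libraries and 2.36, 2.17 and 3.17 CPM in Ogtflox-/Y libraries. At n-TLcaa2, a leucine tRNA gene (chr13:21914617-21915017), values were 10.6, 12 and 9.81 CPM in Ogtflox+/Y libraries and 1.45, 1.96 and 2.47 CPM in Ogtflox-/Y libraries. In each, the Ogtflox+/Y libraries were close together.
The other 12 had Ogtflox+/Y means of 2.89 to 7.6 CPM and Ogtflox-/Y means of 0.63 to 1.61 CPM, and none had Ogtflox+/Y libraries 2-fold apart. Copies of tRNA genes are near-identical, and the sources used here do not say how reads that match several copies were counted, so the copy that opened is uncertain.

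**Figure D4:**
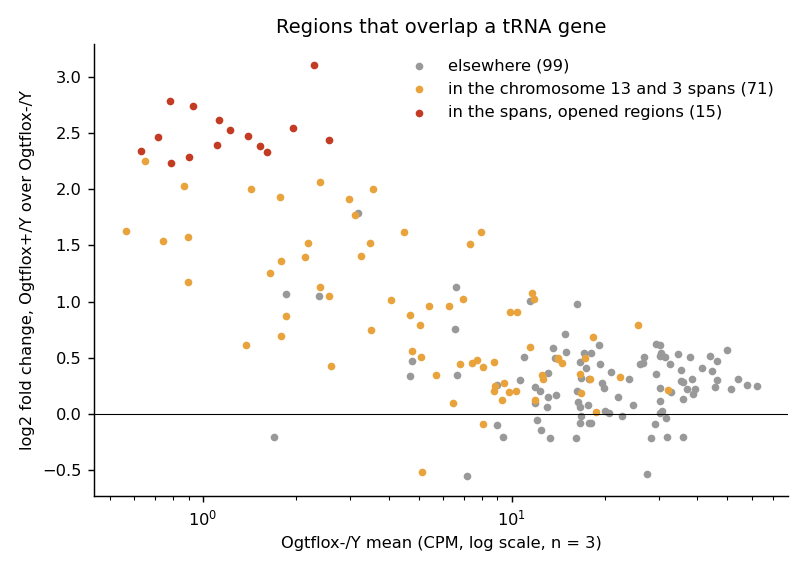
The edgeR log2 fold change of Ogtflox+/Y over Ogtflox-/Y (y axis) against the Ogtflox-/Y mean CPM (x axis, log scale) for the 185 regions that overlap a tRNA gene; points are coloured by whether they lie in the chromosome 13 or 3 span and whether they are opened regions. The 15 opened regions lie at the low end of the x axis, and tRNA regions elsewhere, mostly well open in Ogtflox-/Y, lie near 0.

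Among the remaining tRNA regions, more were called higher than lower. Of 185 regions on tRNA genes edgeR called 104 higher and 1 lower, with a median log2 fold change of 0.45, against 15.4% called higher and a median of -0.01 over all regions. Without the 15 opened regions, 89 of 170 were called higher and 1 lower, with a median of 0.41. With library totals as scaling, 58 of the 185 were called higher and 11 lower, and the median was 0.18, against -0.27 over all regions. In the chromosome 13 span 55 of 80 tRNA regions were called higher (median 0.89) and in the chromosome 3 span 6 of 6 (median 2.34). Both span counts include opened regions, 12 and 3 of them, which the rule chose on this same difference. The spans are also those that hold the opened regions. Elsewhere 43 of 99 were called higher, with a median of 0.29, or 9 higher and 10 lower with library totals.
The tRNA regions outside the spans were mostly well open in both groups, with medians of 22.6 CPM in Ogtflox+/Y and 19.9 CPM in Ogtflox-/Y. Only 3 of them had an Ogtflox-/Y mean under 3 CPM, against 35 tRNA regions in the spans. The rule favours regions faint in Ogtflox-/Y, so nothing is read from all 15 opened ones lying in the spans. The 223 regions in the spans that held no tRNA gene had 46 called higher and 41 lower, with a median log2 fold change of 0.05.

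Genes of the p53 pathway were the other recurring neighbours. Of 26 p53 target genes listed, 6 had 8 opened regions nearest to them, which is 1.72% of opened regions, against 0.1% of other regions weighted to the same mean CPM and 0 of 171 closed regions. The list was written with results of these data known, and of its regions those of Mdm2, Plk2, Zmat3, Trp53inp1 and the second of Cdkn1a were picked out after their values were seen. Cdkn1a, the gene of the cell cycle inhibitor p21, had 2. At its start site (chr17:29090738-29091138, the region over the window printed above) values were 8.1, 10.9 and 9.81 CPM in Ogtflox+/Y libraries and 1.22, 1.06 and 0.906 CPM in Ogtflox-/Y libraries. The second, 11749 bp from the gene (chr17:29078830-29079230), overlapped Trp53cor1, a lncRNA gene that p53 activates, with 13.8, 7.32 and 12.5 CPM in Ogtflox+/Y libraries and 1.91, 1.8 and 2.16 CPM in Ogtflox-/Y libraries. At the second, Ogtflox+/Y replicate 2 was the lowest of its group.

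The listed genes also included Phlda3, an inhibitor of Akt signalling, where a region 6000 bp away had 5.54, 3.78 and 5.7 CPM in Ogtflox+/Y libraries and 0.534, 0.532 and 0.402 CPM in Ogtflox-/Y libraries. Inside Mdm2, the gene of the ubiquitin ligase that degrades p53, a fainter region averaged 2.12 ± 0.379 CPM in Ogtflox+/Y and 0.422 ± 0.0965 CPM in Ogtflox-/Y. A region in Zmat3, an RNA-binding protein gene, averaged 10.8 ± 0.999 CPM in Ogtflox+/Y and 2.24 ± 0.336 CPM in Ogtflox-/Y. Beside Plk2, a polo-like kinase gene, the means were 6.58 ± 0.585 CPM in Ogtflox+/Y and 1.46 ± 0.214 CPM in Ogtflox-/Y (SD, n = 3 each throughout).
Trp53inp1, a p53-induced stress gene, had 2 opened regions 1062 and 1781 bp from its bounds, with Ogtflox+/Y means of 9.32 and 2.49 CPM and Ogtflox-/Y means of 1.03 and 0.491 CPM. Another opened region, 5833 bp from Ccne2, the gene of cyclin E2, lay within 10000 bp of the fainter of these.

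Mdm4, which encodes an inhibitor of p53 related to Mdm2 and was not on the list, held one of the largest clusters, with 4 of the 7 regions between its first and last opened region (chr1:133019359-133036286). The highest of the 4 (chr1:133020137-133020537) had 12.2, 12.8 and 13.2 CPM in Ogtflox+/Y libraries and 0.686, 1.39 and 0.956 CPM in Ogtflox-/Y libraries. The other 3 had Ogtflox+/Y means of 7.4 to 10.1 CPM and Ogtflox-/Y means of 0.807 to 1.52 CPM. Tnfrsf22 and Tnfrsf23, mouse decoy receptors of the death ligand TRAIL, each had 1 opened region, with Ogtflox+/Y means of 2.44 and 3.14 CPM and Ogtflox-/Y means of 0.281 and 0.213 CPM; both were picked out after their values were seen. The Tnfrsf23 region was the one member of the set with 0 reads in a library, Ogtflox-/Y replicate 1, which allows up to 0.229 CPM.
The region over the Gm51651 window printed above (chr1:155056059-155056459), 39908 bp from the immediate early gene Ier5, had 5.33, 4.57 and 5.63 CPM in Ogtflox+/Y libraries and 0.381, 0.696 and 0.654 CPM in Ogtflox-/Y libraries. The region over the Gm33661 window (chr7:130340533-130340933), 50560 bp from Ate1 and shown only for that window, had 6.18, 5.43 and 6.39 CPM in Ogtflox+/Y libraries and 0.61, 1.23 and 1.31 CPM in Ogtflox-/Y libraries. At both, Ogtflox+/Y replicate 2 was the lowest of its group.

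**Figure D5:**
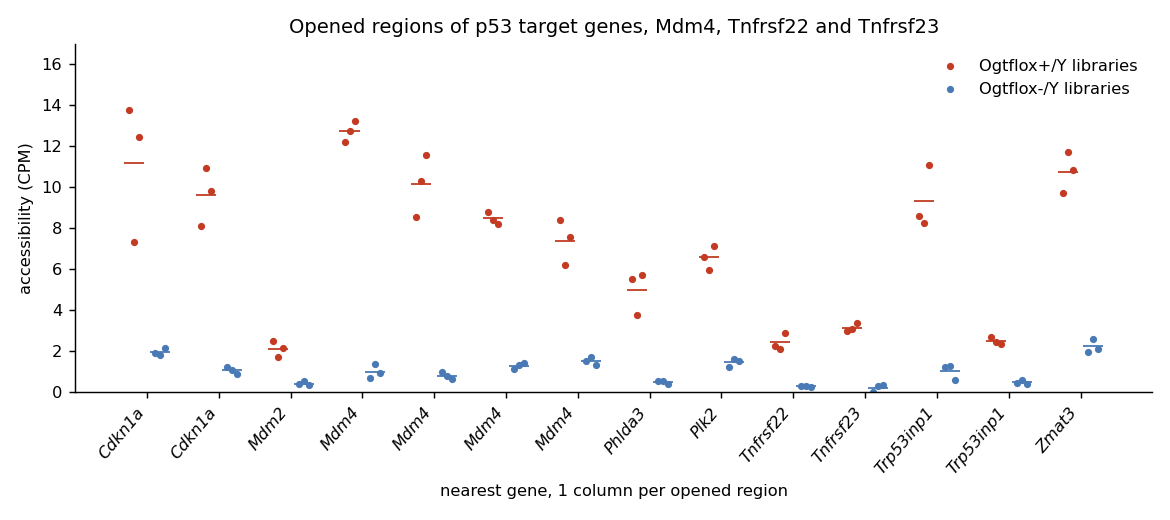
CPM in each library at 14 opened regions whose nearest gene is a listed p53 target, Mdm4, Tnfrsf22 or Tnfrsf23; points are libraries (Ogtflox+/Y red, left; Ogtflox-/Y blue, right), lines are means of 3. The rule requires that the groups do not overlap at any of these regions. Ogtflox+/Y means run from 2.12 CPM at Mdm2 to 12.7 CPM at Mdm4.

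The p53 target list was also counted over all its regions, including the 8 opened ones, which the rule chose on this same difference. Of its 223 regions edgeR called 66 higher and 22 lower, against 15.4% called higher over all regions. The median log2 fold change was 0.19, against -0.01 over all regions on these chromosomes. Without the 8 opened ones, 58 of 215 were called higher and 22 lower (median 0.15). With library totals 37 of the 223 were called higher and 37 lower (median -0.07, against -0.27 over all regions). All 189575 regions on these chromosomes then had 12946 called higher and 46421 lower.

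Among 32 gene families taken by symbol, the C2H2 zinc finger genes named Zfp had the most opened regions. They were nearest to 18 (3.86%), against 1.2% of other regions weighted to the same mean CPM. Of the 18, 8 lay on tRNA genes near Zfp184 and Zfp322a, so the tRNA clusters and the Zfp count overlap. Within 10000 bp of a Zfp gene there were 10 (2.15%), against 0.84% of other regions; these included Zfp37 and Zfp958. Over the family's 2545 regions 505 were called higher and 300 lower, against 15.4% called higher over all regions. With library totals 238 were called higher and 598 lower (median log2 fold change -0.19). All 189575 regions on these chromosomes then had 12946 called higher and 46421 lower (median -0.27). Tripartite motif genes had 4 opened regions (0.86%, against 0.23%), nearest to Trim11, Trim24, Trim27 and Trim44, of which that near Trim27 lay on a tRNA gene. Solute carriers had 10 (2.15%, against 1.96%) and potassium channels 4 (0.86%, against 1.17%), near their share of other regions, and GABA-A receptors, semaphorins and plexins, ephrins and Sox genes had 0.

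Genes that make and use the sugar donor of the Ogt enzyme had 2 opened regions among 74 regions of 13 listed genes (0.43% of opened regions, against 0.03% of other regions). Inside Gfpt1, the rate-limiting enzyme gene of the hexosamine pathway (chr6:87069386-87069786), values were 4.62, 7.32 and 7.98 CPM in Ogtflox+/Y libraries and 1.14, 1.35 and 1.21 CPM in Ogtflox-/Y libraries. Inside Slc35a3, which carries UDP-GlcNAc into the Golgi (chr3:116710908-116711308), they were 4.12, 4.8 and 5.25 CPM in Ogtflox+/Y libraries and 0.991, 1.15 and 1.06 CPM in Ogtflox-/Y libraries. Ogtflox+/Y replicate 1 was the lowest of its group at both. Over the list edgeR called 18 of 74 regions higher and 9 lower, the 2 opened regions included, against 15.4% called higher over all regions. With library totals 11 were called higher and 19 lower (median log2 fold change -0.2). All 189575 regions on these chromosomes then had 12946 called higher and 46421 lower (median -0.27).
The list of STAT3 targets had 2 opened regions among 304 (0.43% of opened regions, against 0.15% of other regions). One inside Bcl2l1, an anti-apoptotic gene (chr2:152792483-152792883), had 15.4, 11.6 and 16.4 CPM in Ogtflox+/Y libraries and 2.29, 2.25 and 2.57 CPM in Ogtflox-/Y libraries. The other lay 194301 bp from Bcl6 and averaged 2.28 ± 1.02 CPM in Ogtflox+/Y and 0.308 ± 0.136 CPM in Ogtflox-/Y (SD, n = 3 each). Lists of JAK-STAT signalling, interferon response, cell death and inflammation, and germline genes had 0, against 0.15%, 0.03%, 0.05% and 0.04% of other regions, so that 0 is near the background for each.

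Opened regions clustered weakly. Of 466, 27 (5.79%) had another within 10000 bp, while 0.59% of other regions weighted to the same mean CPM had an opened region that close, and 2 of 171 closed regions did. These 27 formed 8 pairs, 1 group of 3 and 2 groups of 4, and 9 of them lay on tRNA genes. Besides the Mdm4 group and the tRNA groups, pairs lay near Egfl7, Rtf2, Trp53inp1 and Ccne2, Gpbp1l1 and Ccdc17, Tgfa, Zfp280d and Calml3. Within 100000 bp the share was 16.1%, against 5.22%. By chromosome, the number per 1000 regions ran from 1.61 on chromosome 14 to 4.18 on chromosome 13, and was 2.74 on chromosome 13 without tRNA regions. The median gap between neighbouring opened regions was 2604545 bp.

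Regions next to an opened region also tended to be higher in Ogtflox+/Y. The nearest other region of each lay a median 1693 bp away, and edgeR called 189 of the 466 (40.6%) higher and 24 lower, against 15.1% higher and 12.6% lower among all other regions. Where it lay within 2000 bp, 136 of 256 (53.1%) were called higher and 3 lower, with a median log2 fold change of 0.42. Over 10000 bp away, 14 of 46 were called higher and 5 lower. The rule did not use these neighbours, but the same libraries underlie both values. Nearest neighbours of other regions, matched in level or position, were not compared, and the calls here use the main scaling only.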

How the data were processed

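ATAC-seq of sorted nuclei was analysed in 6 libraries. Per the submitters' processing notes, the tools were MACS2, Picard, SAMtools 1.9, BWA, Trimmomatic and FastQC, on mm10; what each did, how reads were counted and whether they were shifted for the transposase is not given in the sources used here. For identical sets of 193148 regions in each library, the authors deposited whole read counts, RPKM values and scores. Counts were used as deposited; the deposited RPKM served only to recover library totals, and the score was not used. The written design named counts as the unit, so no test was changed. CPM used reads in regions. Counts were tested across all regions in edgeR 4.0.16 (R 4.3.3) by its quasi-likelihood test (TMM, filter on low counts, genotype only, Benjamini-Hochberg adjustment), checked on simulated data; DESeq2 1.42.0 was an alternative. Genes, tRNA genes and promoters came from RefSeq tables of GRCm38.p6, whose gene bounds carry no exons, so exons and introns could not be separated. Histone symbols matched no region and that family was dropped. Named regions were the 12 with the widest gap, the 10 with the highest level, 10 at gene ends, the 5 largest clusters, up to 2 for each list and family and 3 on either side of the limit; other regions were picked out after their values were seen. The members and the gene lists were chosen with earlier results of these data known. A single region is not reported here, and it remains in the counts.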

Additional observations from a re-analysis of the deposited data

Results flagged for a closer look

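The rule covers chromosomes 1 to 19, and 4 of 3564 regions on chromosome X met the same limits (1.12 per 1000 regions, against 2.46 per 1000 on chromosomes 1 to 19), a signal in regions outside the comparison. These rates were not matched for mean CPM, on which the rule sets a floor, and the /Y genotypes have a single X. The 4 regions lay inside Tspan7, Pgrmc1, Hdac8 and Ctps2. The highest, in Pgrmc1, a haem-binding membrane protein gene (chrX:36599671-36600461), had 11.7, 12.1 and 11.8 CPM in Ogtflox+/Y libraries and 3.2, 3.44 and 3.72 CPM in Ogtflox-/Y libraries. The one in Ctps2, a CTP synthase gene, had 6.33, 5.91 and 6.33 CPM in Ogtflox+/Y libraries and 0.534, 1.23 and 1.51 CPM in Ogtflox-/Y libraries. Groups of 3 libraries were too small to look for a library far from the others.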

How the results depend on the processing

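The number of regions meeting the rule was 126 with CPM per library total, 1637 at 2-fold, 96 at 5-fold, 224 at a mean of 5 CPM and 0 with groups from the title. It ran from 550 to 1270 leaving out one library, highest without Ogtflox+/Y replicate 2. All 466 were called higher by edgeR without any one library and under each scaling, and by DESeq2, but not with groups from the title. The rule nearly requires these calls, since it chose the 466 on the same libraries, so nothing is read from them. Members on tRNA genes numbered 7 with library totals and 15 to 22 without one library; members nearest to p53 targets numbered 4 and 8 to 11. The share 1000 to 2000 bp from a start was 17.6% with library totals, 10.2% at a mean of 1 CPM, 17.2% at 5 CPM and 7.02% to 13.6% without one library. Regions called higher over all numbered 29579, or 13135 with library totals, 0 by title, and 19100 (without Ogtflox-/Y replicate 2) to 29969 without one library. Regions called lower numbered 24271, or 47189 with library totals, 14862 in DESeq2, 0 by title, and 14676 to 25007 without one library, lowest without Ogtflox-/Y replicate 2 and 14831 without Ogtflox-/Y replicate 1. Wider limits gave 29.8% within 3000 bp of a gene bound, 16.1% with another member within 100000 bp and, at a limit of 10000 bp, 2.15% nearest to a Zfp gene. The cause of these changes was not tested. Scalings by reads in regions, the rule's results on tRNA, p53 and start-site counts under alternatives, and the p53 half-site were chosen after seeing the data. No paired analysis was possible because the numbers in the sample titles differ between the genotypes; replicates 1 to 3 are named in the order of accession and pair nothing. Depth limits the folds: 55 members had 3 reads or fewer in an Ogtflox-/Y library.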

Other observations

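Imprinted genes had 3 opened regions among 381 regions of 28 genes, nearest to Igf2r, Kcnq1 and Zdbf2 (0.64% of opened regions, against 0.2% of other regions weighted to the same mean CPM). The one 21765 bp from Igf2r, a receptor that clears the growth factor Igf2, had 4.27, 4.72 and 4.49 CPM in Ogtflox+/Y libraries and 0.762, 0.532 and 0.704 CPM in Ogtflox-/Y libraries. That inside Kcnq1, a potassium channel gene, was fainter, with 2.49, 2.2 and 2.72 CPM in Ogtflox+/Y libraries and 0.0762, 0.45 and 0.252 CPM in Ogtflox-/Y libraries. Over the 381 regions edgeR called 83 higher and 32 lower, against 15.4% called higher over all regions. With library totals 41 were called higher and 70 lower (median log2 fold change -0.17). All 189575 regions on these chromosomes then had 12946 called higher and 46421 lower (median -0.27).

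Of genes that silence DNA or partner with the Ogt enzyme in chromatin, Mbd5, a methyl-CpG-binding domain gene, and Atf7ip, a cofactor of the histone methyltransferase Setdb1, each had 1 opened region. Both lists held 1 (0.21% of opened regions each). Of other regions weighted to the same mean CPM, 0.13% lay nearest to Ogt partners and 0.06% nearest to silencing genes. A list of endoplasmic reticulum and Golgi glycosylation genes also held 1 (0.21%, against 0.22%). With 1 region each, nothing is read from these shares. Inside Mbd5 the means were 2.84 ± 0.368 CPM in Ogtflox+/Y and 0.687 ± 0.0729 CPM in Ogtflox-/Y, and 19093 bp from Atf7ip they were 5.99 ± 0.535 CPM in Ogtflox+/Y and 1.1 ± 0.56 CPM in Ogtflox-/Y (SD, n = 3 each). Inside Mgat5, which branches N-glycans from the same sugar donor, the means were 9.89 ± 1.93 CPM in Ogtflox+/Y and 1.49 ± 0.314 CPM in Ogtflox-/Y (SD, n = 3 each).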
